A study of Mus musculus with 6 samples.

Results

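The first 3 h after an auxin analog was given to mouse embryonic stem (ES) cells with a degradable DDX6 protein were examined by comparing 2 libraries taken at 3 h with 2 taken at 0 h. The libraries were chosen by their labelled times alone, 4 of the 6 in the series, and all genes were considered. Of 55487 genes in the count table, 15748 had enough counts to be tested. The other 2 libraries, from 6 h, entered the same fit only to add to the estimate of spread, and their values are given beside those of the early genes.

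Every group came from the D6AdP ES cell line and shared 1 genotype. Both Ddx6 alleles encoded DDX6 fused to an auxin-inducible degron and a red fluorescent protein (DDX6-AID-mCherry/DDX6-AID-mCherry). The cells were also heterozygous for a green fluorescent fusion of the decapping cofactor DCP1A (DCP1a-EGFP/+). A transgene, OsTIR1-FLAG Tg, supplied the plant F-box protein that hands degron proteins to the proteasome once an auxin is bound. The labels set the 0 h, 3 h and 6 h groups apart by how long 500 nM 5-Ph-IAA, the auxin analog, had been present. Cells were grown with PD0325901, which inhibits the kinase MEK upstream of ERK, with CHIR99021, which inhibits the kinase GSK3, and with leukemia inhibiting factor (LIF). The wells also held fibroblast feeder cells stopped from dividing with mitomycin-C, and their RNA is in every library. The labels name a single line and leave it unsaid whether replicates were separate cultures. The p-values therefore reflect library-to-library spread that may be technical alone. Wells without the analog at 3 h, and treated cells without a degron, were not analysed here, so effects of the analog, of handling, of time and of DDX6 loss cannot be told apart.

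DDX6 is a DEAD-box RNA helicase of the cytoplasm. It binds the CCR4-NOT deadenylase, decapping proteins and translational repressors, and it is needed for P-bodies, the granules in which repressed mRNAs gather. Argonaute proteins loaded with a microRNA reach CCR4-NOT and DDX6 through the GW182 scaffold proteins, so DDX6 stands at the junction of microRNA silencing, deadenylation and decapping.

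Totals in the 4 libraries ran from 19405226 to 21846959 counts, at which 3 counts stood for 0.137 to 0.155 CPM, the count scaled to the size of its library. Replicates correlated at r = 0.998 across genes at both times, and each pair differed by more than sampling noise, with chi-square per degree of freedom of 4.55 at 0 h and 2.08 at 3 h. Replicate 1 of 0 h stood apart. Replicate 2 of 0 h was closer to both 3 h libraries (2.30 and 3.82) than to it, and on the second principal component, with 16.3% of the variance, replicate 1 of 0 h lay at 9.08, replicate 2 at 1.116 and the 3 h libraries at -5.10 and -5.56. On the first principal component, with 58.2% of the variance, the 0 h and 3 h libraries lay side by side at -8.60 to -6.55, far from the 6 h libraries at 14.5 and 15.4. All 16 ES cell markers tested were expressed, with mean levels at 0 h from 33.6 (Dppa4) to 1323 (Dppa5a) CPM per kilobase of exon. None of the 32 fibroblast markers was at 0 in any library. The gene CT010467.1, which gathers ribosomal RNA reads, took 0.138% and 0.440% of counts at 0 h against 0.574% and 0.797% at 3 h. With the genes that gather such reads left out, 26 genes were called, all 22 of those described below among them.

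Few genes were called at 3 h, which does not show that the others were unchanged. At an unadjusted p under 0.05 edgeR had 1679 genes, 10.7% of those tested. On the same 15748 genes DESeq2 had 446 at that threshold and limma voom had 1695, so this count depended on the tool. A gene was called at a Benjamini-Hochberg adjusted p under 0.05 in edgeR's quasi-likelihood test, and 22 genes were called, 0.14% of those tested. Of these 8 rose (0.0508%) and 14 fell (0.0889%). The same test called 3515 genes, 22.3%, at 6 h against 0 h and 3414, 21.7%, at 6 h against 3 h; these comparisons share libraries with the early one. The changes at 3 h were small. The called genes had log2 fold changes between -0.64 and 0.46, and the middle 90% of all genes tested lay between -0.36 and 0.30 with a median standard error (SE) of 0.08. All 22 were protein-coding genes, and none of the 822 long non-coding RNAs tested was called. At an unadjusted p under 0.05 edgeR put 22 of them higher and 49 lower (2.68% and 5.96%, against 4.48% and 6.18% of all genes). Low counts limited what could be seen. Among the 1777 genes with an average below 1 CPM the median SE was 0.40 and edgeR called 0 genes, with 45 higher and 63 lower at an unadjusted p under 0.05 (2.53% and 3.55%).

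**Figure D1:**
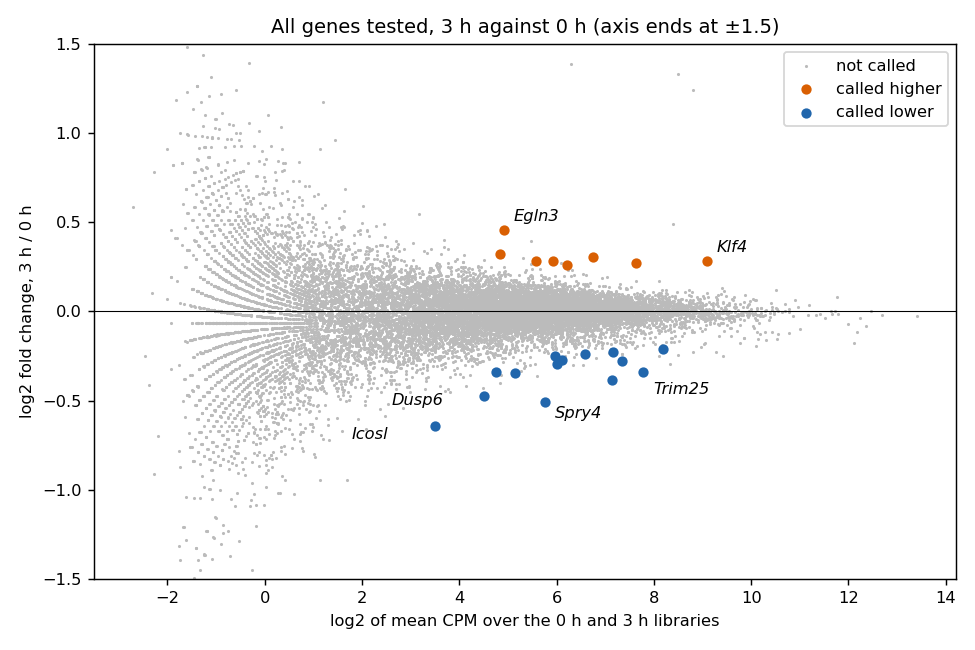
Log2 fold change at 3 h against 0 h plotted over the log2 of mean CPM for the genes tested, with called genes in colour (8 higher in orange, 14 lower in blue) and 12 genes beyond the axis not drawn. The called genes sit at the edges of a narrow cloud, and most weakly expressed genes with larger changes were not called.

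The fit was repeated with each of the 6 libraries left out in turn. Without a 0 h or 3 h library, that time has 1 library and the spread is estimated from the other times. A call lost or gained can then reflect fewer libraries or a changed estimate of spread. It does not show that the call rested on the library left out. Spry4, Trim25 and Ppp1r10, all lower at 3 h, were called in each of these 6 fits. With replicate 1 of 3 h left out, those 3 alone of the 22 were still called. Leaving out replicate 2 of 3 h kept 4 of them, the fourth being Klf4, and leaving out replicate 1 of 0 h kept 9. Leaving out replicate 2 of 0 h kept 21, Zranb1 being the exception at an edgeR adjusted p of 0.0583, and either 6 h library could be left out with all 22 still called. The number of all genes called moved from 22 to 4, 7, 12, 249, 89 and 88 when replicates 1 and 2 of 3 h, 1 and 2 of 0 h and 1 and 2 of 6 h were left out in turn.

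**Figure D2:**
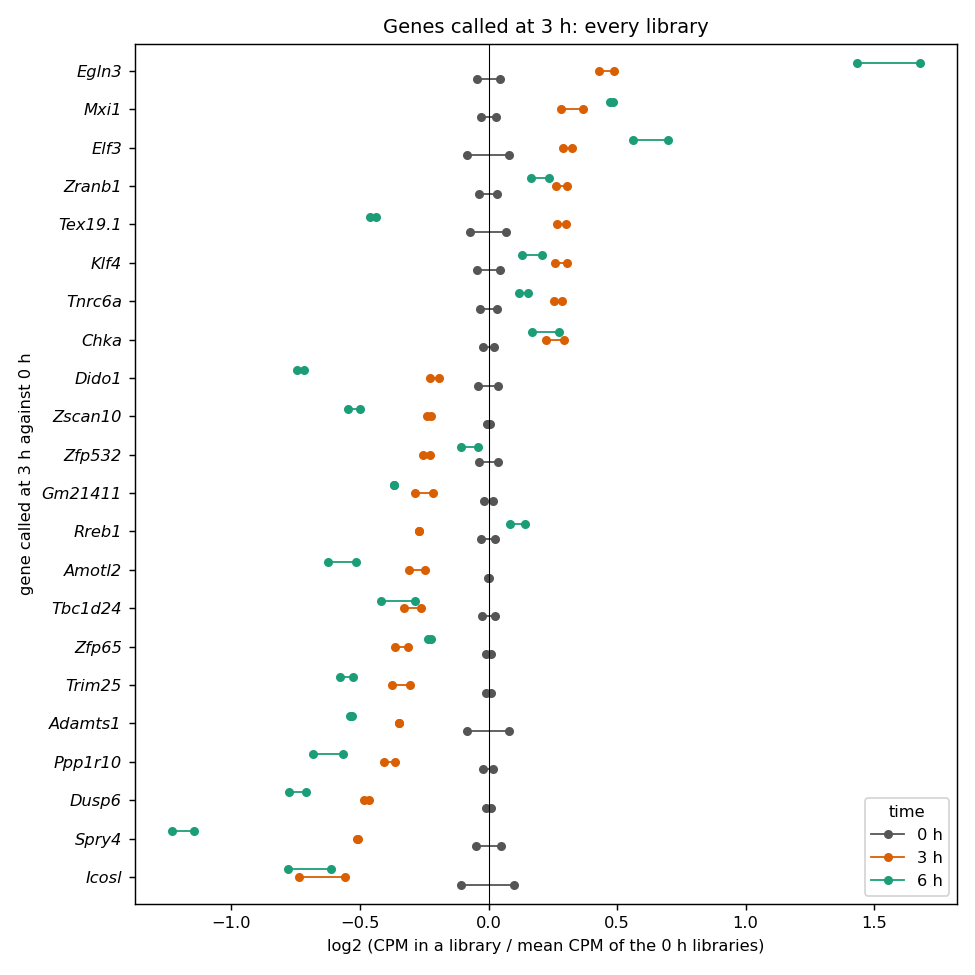
Level of each of the 22 called genes in every library, as log2 of its CPM over the mean CPM of the 0 h libraries (points are libraries, lines join the 2 replicates of a time). These genes were selected by the test on the same libraries, and no 3 h library lies within their 0 h range. The 0 h and 3 h libraries also did not overlap for 42.3% of all genes tested. The 6 h points run further out for Spry4, Egln3 and Dido1 but lie near or across 0 for Rreb1, Zfp532 and Tex19.1.

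The gene of the degraded protein was checked first. Ddx6 (ENSMUSG00000032097, chromosome 9, 44604892 to 44640731, GRCm38) measured 267 and 250 CPM at 0 h and 269 and 271 CPM at 3 h. The log2 fold change of 0.06 ± 0.04 (SE, edgeR adjusted p = 0.602) was not called, although both 3 h values lay just above the 0 h pair. The degron acts on the protein, so the mRNA does not measure depletion. Dcp1a, the decapping cofactor whose allele carries EGFP, measured 87.0 and 90.8 CPM at 0 h and 88.5 and 86.7 CPM at 3 h, with a log2 fold change of -0.02 ± 0.04 (adjusted p = 0.905), and the groups overlapped.

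Markers of the feeder fibroblasts were lower in the 3 h libraries. The 32 fibroblast markers summed to 32176 and 29302 CPM at 0 h and to 28303 and 27762 CPM at 3 h, and then to 31482 and 28138 CPM at 6 h. All 32 had a negative log2 fold change at 3 h, from -0.34 for the calcium-binding protein gene S100a4 to -0.04 for the proteoglycan gene Lum, with a median of -0.14 against -0.0008 over all genes. That median was -0.07 with replicate 1 of 0 h left out and -0.20 with replicate 2 of 0 h left out. The libraries did not overlap for 28 of them, all lower, where 21.8% of all genes were lower without overlap. None was called, and 25 were lower at an unadjusted p under 0.05 (6.18% of all genes). Thy1, a surface glycoprotein of fibroblasts, measured 173 and 164 CPM at 0 h and 149 CPM in both 3 h libraries (log2 fold change -0.18 ± 0.04, edgeR adjusted p = 0.127). The ES cell markers summed to 7258 and 7451 CPM at 0 h and to 7396 and 7367 CPM at 3 h, so these groups overlapped. In these bulk samples fewer fibroblasts and less RNA per fibroblast cannot be told apart. A fit with the mean log2 CPM of the 32 markers as a covariate was therefore run, and its values are given below beside the called genes and the lists. It called 47 genes, 9 of them among the 22, which were Spry4, Trim25, Ppp1r10, Dido1, Rreb1, Zscan10 and Tbc1d24, lower, and Klf4 and Tnrc6a, higher. The other 13 kept their direction with edgeR adjusted p of 0.0918 to 0.522. The markers' mean log2 CPM was 8.451 and 8.354 at 0 h, 8.256 in both 3 h libraries, and 8.452 and 8.315 at 6 h. The slope of the covariate thus came from the differences between replicates at 0 h and 6 h. Anything else that differed between those replicates enters it too. The 3 h means also lay outside the 0 h range, so the covariate partly coincides with the comparison itself.

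**Figure D3:**
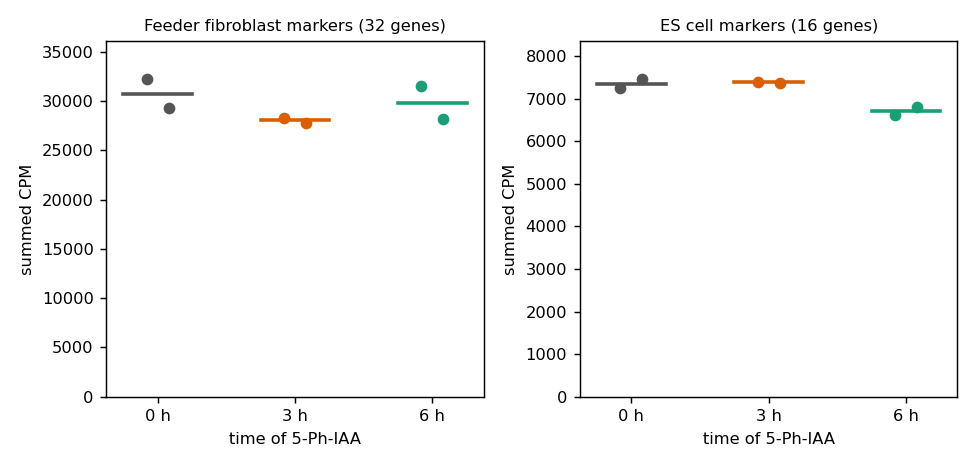
Summed CPM of 32 fibroblast markers (left) and 16 ES cell markers (right) in each library (points) with the mean of each time (lines). The fibroblast sum was 28303 and 27762 CPM at 3 h, below both 0 h libraries at 32176 and 29302 CPM, while the ES cell sums at 0 h and 3 h overlapped.

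The largest fall among the genes called in each of the leave-one-out fits was in a feedback inhibitor of growth factor signalling. Spry4 (ENSMUSG00000024427, chromosome 18, 38586247 to 38601415), a Sprouty protein that restrains signalling from receptor tyrosine kinases to ERK, measured 66.3 and 61.9 CPM at 0 h and 45.0 and 45.1 CPM at 3 h. Every 3 h value was below every 0 h value. The log2 fold change was -0.51 ± 0.05 (edgeR adjusted p = 0.000546), a drop of 29.7%, and at 6 h the libraries measured 27.3 and 29.0 CPM. With the fibroblast covariate the log2 fold change was -0.50 (adjusted p = 0.000266). Leaving out 1 library at a time, its adjusted p was at most 0.0162. Dusp6, which encodes a phosphatase that switches off ERK, also fell, with 26.7 and 26.4 CPM at 0 h, 19.3 and 19.0 CPM at 3 h and 16.2 and 15.5 CPM at 6 h. The fall was -0.47 ± 0.07 on the log2 scale at 3 h (adjusted p = 0.00642), was not called with replicate 1 or 2 of 3 h left out (adjusted p = 0.132 and 0.155), and was -0.42 with the covariate (adjusted p = 0.104).

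Spry4 and Dusp6 were the 2 called genes among the FGF and ERK targets. Of 21 tested, these included, 19 had a negative log2 fold change, 2 were called lower and 7 were lower and 1 higher at an unadjusted p under 0.05, against 6.18% and 4.48% of all genes. Named after their values were seen, Il17rd, another inhibitor of FGF signalling, had a log2 fold change of -0.18 ± 0.04 (edgeR adjusted p = 0.117), Spry2 one of -0.13 ± 0.04 (0.218), and the cytokine gene Lif one of -0.33 ± 0.08 (0.163), while Ets2, an ETS family factor, had one of 0.17 ± 0.07 (0.342). The median of the list was -0.15. It was -0.07 without replicate 1 of 0 h and 0.01 with the fibroblast covariate, so the median of the list did not keep its direction under the covariate, while Spry4 and Dusp6 did. MEK was inhibited in every library, so these are differences between levels reached in the presence of PD0325901.

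Immediate early genes, which answer growth factor and stress signals within minutes, had no called member among 31 tested. At an unadjusted p under 0.05 11 were lower and 3 higher (6.18% and 4.48% of all genes), and the median log2 fold change was -0.08 (-0.00224 with the covariate). Myc, a growth-promoting transcription factor, measured 44.8 and 45.4 CPM at 0 h and 37.5 and 35.5 CPM at 3 h, the lower values all at 3 h. With a log2 fold change of -0.31 ± 0.06, its edgeR adjusted p of 0.0518 just missed the threshold. Ccn2, a matricellular protein gene that is also one of the fibroblast markers, had a log2 fold change of -0.23 ± 0.05 (adjusted p = 0.128), and 23.2% of its exon length overlaps a gene on the opposite strand. For Zfp36, whose product (tristetraprolin) binds AU-rich elements and recruits deadenylases, the log2 fold change was -0.28 ± 0.08 (adjusted p = 0.222).

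Trim25 and Ppp1r10 had the same adjusted p as Spry4. Trim25 (ENSMUSG00000000275, chromosome 11, 88999376 to 89020293) encodes an RNA-binding ubiquitin ligase that acts with the viral RNA sensor RIG-I. It measured 244 and 247 CPM at 0 h, 199 and 189 CPM at 3 h and 171 and 165 CPM at 6 h. The 3 times did not overlap. The fall at 3 h was -0.34 ± 0.04 on the log2 scale, or 21.0%, with an edgeR adjusted p of 0.000546 and of 0.000112 with the covariate (log2 fold change -0.31). Among 20 RNA sensors and TRIM ligases tested it was the 1 called gene, and the list's median log2 fold change was 0.04 (0.0052 with the covariate).

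Ppp1r10 (ENSMUSG00000039220, chromosome 17, 35916434 to 35932283) encodes PNUTS, a nuclear subunit that directs protein phosphatase PP1 and takes part in transcription termination. It measured 157 and 161 CPM at 0 h, 123 and 120 CPM at 3 h and 107 and 99.0 CPM at 6 h. Again the times stood apart. The fall at 3 h was -0.38 ± 0.04 on the log2 scale (edgeR adjusted p = 0.000546), or 23.4%, and -0.33 with the covariate (adjusted p = 0.000637). Among 21 nuclear PP1 and termination factors tested it was the 1 called gene, the median log2 fold change was 0.0015 (-0.02 with the covariate), and the highest was 0.08.

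Klf4, a pluripotency transcription factor that answers to LIF and STAT3, rose. Of the 8 genes that rose it had the highest level per length at 0 h, 161 CPM per kilobase of exon. Klf4 (ENSMUSG00000003032, chromosome 4, 55527143 to 55532466) measured 475 and 506 CPM at 0 h and 607 and 587 CPM at 3 h, so both 3 h values were higher. The log2 fold change was 0.28 ± 0.04 (edgeR adjusted p = 0.00342), and 0.18 with the fibroblast covariate (adjusted p = 0.0101). Without replicate 1 of 3 h the adjusted p was 0.152. At 6 h Klf4 measured 537 and 567 CPM, between the other times (6 h minus 3 h, -0.11 ± 0.04, adjusted p = 0.0395, with 3 h shared between both tests).

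The other LIF and STAT3 targets were not called. Of 19 tested, 15 had a negative log2 fold change, 5 were lower and 2 higher at an unadjusted p under 0.05 (6.18% and 4.48% of all genes), and the median was -0.05 (-0.04 with the covariate and -0.03 with replicate 2 of 3 h left out). Tfcp2l1, a naive-state transcription factor on that list, measured 1437 and 1443 CPM at 0 h and 1330 and 1333 CPM at 3 h (log2 fold change -0.11 ± 0.03, edgeR adjusted p = 0.131), the 3 h values both lower. Among 24 naive pluripotency genes, Klf4 and Tex19.1 were called higher, 6 were higher and 3 lower at an unadjusted p under 0.05, and the median was 0.02 (-0.05 with the covariate). Of 14 core pluripotency genes none was called, with 4 higher and 1 lower at that threshold and a median of -0.0031 (0.0034 with the covariate). Nanog measured 628 and 653 CPM at 0 h and 705 and 699 CPM at 3 h (0.13 ± 0.03, adjusted p = 0.127). Lin28a, an RNA-binding protein that blocks let-7 maturation, measured 220 and 202 CPM at 0 h and 179 and 187 CPM at 3 h (-0.21 ± 0.04, adjusted p = 0.0793). Nanog was thus higher and Lin28a lower in both 3 h libraries without passing the test.

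Tex19.1, a gene of germ cells, placenta and ES cells that is kept off elsewhere by DNA methylation, rose and then fell. Its libraries read 52.1 and 57.5 CPM at 0 h, 67.5 and 66.0 CPM at 3 h and 40.5 and 39.8 CPM at 6 h. The 3 h pair was the highest and the 6 h pair the lowest (6 h minus 3 h, -0.73 ± 0.05). The log2 fold change at 3 h was 0.28 ± 0.05 (edgeR adjusted p = 0.0464), 0.22 with the covariate (adjusted p = 0.321), and the call was lost without replicate 1 of 0 h or either 3 h library (adjusted p = 0.362, 0.438 and 0.273). It was the 1 called gene among 20 methylation-sensitive germline genes, whose median was 0.05 (0.03 with the covariate, and 0.14 with replicate 2 of 0 h left out). Elf3, an ETS factor of epithelia listed with endoderm and trophectoderm genes, measured 91.1 and 102 CPM at 0 h, 121 and 118 CPM at 3 h and 142 and 157 CPM at 6 h. Each time was above the one before. Its log2 fold change at 3 h was 0.31 ± 0.05 (adjusted p = 0.0339) and 0.13 with the covariate (adjusted p = 0.522). Zscan10, a zinc finger factor of ES cells, fell from 155 and 156 CPM to 132 and 133 CPM, a log2 fold change of -0.23 ± 0.04 (adjusted p = 0.0250) that was -0.27 with the covariate (adjusted p = 0.00667), and it read 106 and 110 CPM at 6 h.

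Egln3 had the largest rise among the called genes. Egln3 (ENSMUSG00000035105, chromosome 12, 54178981 to 54203860) encodes a prolyl hydroxylase that marks the HIF alpha subunits for destruction in oxygen, and it is itself a target of HIF. The libraries read 24.6 and 26.1 CPM at 0 h, 35.6 and 34.1 CPM at 3 h and 68.4 and 81.2 CPM at 6 h. Each time stood clear of the one before. The log2 fold change at 3 h was 0.46 ± 0.07 (edgeR adjusted p = 0.0205), or 37.3%. It was 0.23 with the fibroblast covariate (adjusted p = 0.334), and without replicate 1 or 2 of 3 h the adjusted p was 0.327 and 0.150. From 3 h to 6 h the log2 fold change was 1.10 ± 0.07.

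Mxi1, a partner of MAX that opposes MYC and another HIF target, measured 25.04 and 26.1 CPM at 0 h, 31.0 and 32.9 CPM at 3 h and 35.8 and 35.5 CPM at 6 h. At 3 h the log2 fold change was 0.32 ± 0.06 (edgeR adjusted p = 0.0464) and 0.30 with the covariate (adjusted p = 0.216), and its call was lost without replicate 1 of 0 h or either 3 h library (adjusted p = 0.240, 0.229 and 0.478). Of 42 HIF hydroxylases and HIF targets tested, Egln3 and Mxi1 were called. In edgeR 6 were higher and 1 lower at an unadjusted p under 0.05 (4.48% and 6.18% of all genes). Without overlap 16 were higher and 6 lower (20.5% and 21.8% of all genes). The median of the list was 0.02 and, with the covariate, -0.05. Named after their values were seen, the glucose transporter gene Slc2a1 had a log2 fold change of 0.10 ± 0.05 (adjusted p = 0.465) and the angiogenic factor gene Vegfa one of -0.17 ± 0.04 (adjusted p = 0.163), so members of the list differed in sign. In the MYC, MAX and MXD network, with 16 genes tested and a median of -0.01 (-0.04 with the covariate), Mxi1 was the 1 gene called.

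A start site of each gene is shown because HIF binds a core that contains ACGTG. Mxi1 has 3 annotated starts, of which the first (chr19:53310256-53310555) has no match and the other two have 1 each; the second is shown because it has one. The sequences are RefSeq promoters on GRCm38.p6, 5′ to 3′ on the strand of the gene, from 250 bases before the annotated start to 50 after it, with ACGTG in capitals. The Egln3 window is chr12:54203825-54204124, minus strand, and the window of the second annotated Mxi1 start is chr19:53329163-53329462, plus strand.
Egln3: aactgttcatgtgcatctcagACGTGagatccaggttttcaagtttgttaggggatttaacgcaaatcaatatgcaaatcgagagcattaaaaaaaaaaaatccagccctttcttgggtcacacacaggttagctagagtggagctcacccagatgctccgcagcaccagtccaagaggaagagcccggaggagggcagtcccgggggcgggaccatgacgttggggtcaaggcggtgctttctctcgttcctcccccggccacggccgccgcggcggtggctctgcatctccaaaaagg
Mxi1: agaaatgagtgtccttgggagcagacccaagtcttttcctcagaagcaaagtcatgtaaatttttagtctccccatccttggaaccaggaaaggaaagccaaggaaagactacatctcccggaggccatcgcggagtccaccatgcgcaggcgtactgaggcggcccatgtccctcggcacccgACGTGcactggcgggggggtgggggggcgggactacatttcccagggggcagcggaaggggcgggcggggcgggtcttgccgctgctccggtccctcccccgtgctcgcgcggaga

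Each window held 1 match to ACGTG on either strand. A match was present for 9 of the 19 called genes that had a RefSeq promoter, and for 28.8% of the 11153 tested genes that had a RefSeq promoter. Of those 9, Egln3, Mxi1 and Klf4 rose and Trim25, Ppp1r10, Zscan10, Rreb1, Tbc1d24 and Zfp65 fell, so the match was found on both sides. The motif CACGTG, which contains ACGTG, was present for 4 called genes (Trim25, Klf4, Rreb1 and Tbc1d24) and 11.6% of all. The ETS motif CCGGAAGT was found for 1 called gene, Zfp65, and 8.61% of all, and the CRE motif TGACGTCA for 1, Zranb1, and 3.48% of all. These are matches of letters in a window and show no binding.

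Tnrc6a, the GW182 scaffold that joins Argonaute to CCR4-NOT and so to DDX6, rose. Tnrc6a (ENSMUSG00000052707, chromosome 7, 123123885 to 123195296) measured 176 and 184 CPM at 0 h, 220 and 215 CPM at 3 h and 201 and 195 CPM at 6 h. The 3 h pair was the highest, and the 6 h pair lay between. Its log2 fold change at 3 h was 0.27 ± 0.04 (edgeR adjusted p = 0.00486), or 20.6%, and 0.26 with the fibroblast covariate (adjusted p = 0.00223). Without replicate 1 or 2 of 3 h the adjusted p was 0.161 and 0.0603. From 3 h to 6 h the log2 fold change was -0.14 ± 0.04 (adjusted p = 0.0165).

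Among 18 genes of Argonautes, GW182 proteins and microRNA processing, Tnrc6a was the 1 called. At an unadjusted p under 0.05 4 were higher and 1, Lin28a, lower, and 10 were higher and 4 lower without overlap (4.48%, 6.18%, 20.5% and 21.8% of all genes, in that order). Named after its values were seen, the paralog Tnrc6b measured 72.7 and 64.9 CPM at 0 h and 81.4 and 80.1 CPM at 3 h (log2 fold change 0.23 ± 0.05, edgeR adjusted p = 0.0870), and Ago1 had a log2 fold change of 0.13 ± 0.04 (adjusted p = 0.225). The median of the list was 0.03 (0.00784 with the covariate).

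None of the 23 CCR4-NOT and deadenylation factors tested was called, and their median log2 fold change was 0.04 (0.02 with the covariate). edgeR put 3 of them higher and 0 lower at an unadjusted p under 0.05, against 4.48% and 6.18% of all genes. Cnot6l, a catalytic deadenylase, measured 25.6 and 26.7 CPM at 0 h, 30.4 and 34.2 CPM at 3 h and 39.0 and 37.9 CPM at 6 h. At 3 h the log2 fold change was 0.31 ± 0.07 (edgeR adjusted p = 0.0793), with both 3 h values above both 0 h values. None of 25 P-body and decapping factors was called (3 higher, 0 lower at an unadjusted p under 0.05; median 0.03, and -0.02 with the covariate), with Lsm7, a subunit of the ring that joins decapping to the mRNA tail, at 0.24 ± 0.08 (adjusted p = 0.252). Of 17 nonsense-mediated decay factors, edgeR called 0, and 0 reached an unadjusted p under 0.05; their log2 fold changes lay between -0.08 and 0.04, with a median of -0.01 (-0.06 with the covariate). Among the lists of genes that work with DDX6, Tnrc6a was thus the 1 gene called.

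Sites in 3′ untranslated regions were read for the called genes because AU-rich elements and microRNA sites both lead to deadenylation. The sites below come from the longest annotated 3′ untranslated region in GENCODE M21 (GRCm38). Capitals mark TTATTTATT, the nonamer of AU-rich elements, or AGCACTT, which pairs with the seed shared by the miR-290 and miR-302 families of ES cells. They lie at chr12:54179140-54179168 (Egln3, minus strand), chr17:24178881-24178909 (Tbc1d24, minus strand), chr7:132985908-132985936 and chr7:132985229-132985255 (Zranb1, plus strand), chr19:53372864-53372890 and chr19:53373411-53373437 (Mxi1, plus strand) and chr13:37934809-37934835 (Rreb1, plus strand), in that order.
Egln3 AU-rich: tgtcatgtccTTATTTATTttgtttattg
Tbc1d24 AU-rich: atgttttctaTTATTTATTagcttttgat
Zranb1 AU-rich: tgtatttataTTATTTATTtatttattta
Zranb1 seed site: tgtcctgataAGCACTTagactgatgt
Mxi1 seed site 1: agttacgttcAGCACTTgtctcattta
Mxi1 seed site 2: tgcctgcaaaAGCACTTcgccgttgct
Rreb1 seed site: cttcaagagcAGCACTTtctttaccac

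The microRNAs named with the seed site are given from RefSeq (GRCm38.p6) with bases 2 to 8, the seed, in capitals, at chr7:3220691-3220712 and chr3:127545275-127545297, both plus strand. They show the letters that pair with AGCACTT.
mmu-miR-294-3p: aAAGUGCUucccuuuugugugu
mmu-miR-302b-3p: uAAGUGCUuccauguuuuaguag

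TTATTTATT was present in 2 of the 8 genes that rose (Egln3 and Zranb1, the latter with 3 overlapping matches) and in 1 of 13 that fell and had such a region (Tbc1d24), against 8.5% of 11680 tested coding genes averaging at least 2 CPM. AGCACTT was present in 2 that rose (Mxi1 with 2 matches, and Zranb1) and 1 that fell (Rreb1), against 18.2%. Over all these genes, the median log2 fold change was 0.0015 without the AU-rich nonamer, -0.0079 with 1 and -0.0074 with more. For AGCACTT it was -0.00017 with no match, 0.0056 with 1 and 0.0090 with more. A hand-made list of 23 mRNAs known for AU-rich elements had 2 genes called lower, Dusp6 and Icosl, and 10 lower and 1 higher at an unadjusted p under 0.05 (6.18% and 4.48% of all genes). Neither Dusp6 nor Icosl had a match to TTATTTATT in its longest 3′ untranslated region. The median log2 fold change of the list was -0.09. Leaving out replicate 2 of 0 h made it -0.18, leaving out replicate 2 of 3 h made it -0.15, and it was -0.05 both with replicate 1 of 0 h left out and with the covariate.

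The remaining genes that fell included nuclear proteins of several kinds. Dido1, a PHD finger protein, measured 305 and 322 CPM at 0 h, 268 and 274 CPM at 3 h and 187 and 191 CPM at 6 h, and the times did not overlap. Its log2 fold change at 3 h was -0.21 ± 0.04 (edgeR adjusted p = 0.0310) and -0.27 with the covariate (adjusted p = 0.000378). Rreb1, a zinc finger factor that binds RAS-responsive elements, measured 77.4 and 74.5 CPM at 0 h, 63.01 and 62.96 CPM at 3 h and 80.4 and 83.7 CPM at 6 h. It was lowest at 3 h and highest at 6 h. The change was -0.27 ± 0.05 at 3 h on the log2 scale (adjusted p = 0.0250), -0.28 with the covariate (adjusted p = 0.0370), and 0.38 ± 0.05 from 3 h to 6 h. Zfp65, a zinc finger gene, read 30.5 and 30.1 CPM at 0 h and 24.4 and 23.5 CPM at 3 h (-0.34 ± 0.06, adjusted p = 0.0418, and -0.32 with the covariate, adjusted p = 0.225).

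Zfp532, another zinc finger gene, fell from 106 and 101 CPM to 88.2 and 86.6 CPM and measured 100 and 95.9 CPM at 6 h. Its log2 fold change at 3 h was -0.24 ± 0.04 (edgeR adjusted p = 0.0418), and -0.16 with the covariate (adjusted p = 0.437). Moreover, 28.7% of its exon length overlaps genes on the opposite strand, and the strand setting of the counting is not given in the sources used here. The predicted gene Gm21411 fell by 0.25 ± 0.05 on the log2 scale (adjusted p = 0.0481) and by 0.27 with the covariate (adjusted p = 0.0918). Both were below their 0 h values in each 3 h library. Neither was called without replicate 1 of 0 h (adjusted p = 0.343 for Zfp532 and 0.137 for Gm21411) or without a 3 h library (0.403 and 0.444, 0.492 and 0.246).

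Genes of the cell surface and cytoplasm also fell. Icosl, the ligand of a T cell costimulatory receptor, had the largest fall of the 22, from 14.7 and 12.7 CPM at 0 h to 9.32 and 8.23 CPM at 3 h, with 8.98 and 8.00 CPM at 6 h. Its log2 fold change at 3 h was -0.64 ± 0.11 (edgeR adjusted p = 0.0250) and -0.41 with the covariate (adjusted p = 0.457). The 3 h and 6 h libraries overlapped (6 h minus 3 h, -0.05 ± 0.12, adjusted p = 0.804). Amotl2, an angiomotin that binds the Hippo pathway factor YAP, measured 178 and 179 CPM at 0 h, 150 and 144 CPM at 3 h and 125 and 116 CPM at 6 h, lower at each later time. It fell by 0.28 ± 0.04 on the log2 scale at 3 h (adjusted p = 0.0124), and by 0.20 with the covariate (adjusted p = 0.104).

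Adamts1, a secreted metalloprotease, measured 41.99 and 37.5 CPM at 0 h and 31.2 CPM in both 3 h libraries (log2 fold change -0.35 ± 0.06, edgeR adjusted p = 0.0402). With the covariate its log2 fold change was -0.26 (adjusted p = 0.367). Tbc1d24, a vesicle trafficking protein, measured 72.2 and 69.9 CPM at 0 h and 56.6 and 59.2 CPM at 3 h (-0.29 ± 0.05, adjusted p = 0.0341, and -0.36 with the covariate, adjusted p = 0.00667). In both genes the 3 h libraries were lower without overlap.

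The last of the genes that rose were enzymes. Chka, choline kinase, which starts phosphatidylcholine synthesis, measured 66.4 and 68.3 CPM at 0 h and 82.5 and 78.6 CPM at 3 h (log2 fold change 0.26 ± 0.05, edgeR adjusted p = 0.0464), and 75.7 and 81.4 CPM at 6 h. Zranb1, a deubiquitinase, measured 44.4 and 42.3 CPM at 0 h, 53.5 and 51.9 CPM at 3 h and 48.6 and 50.9 CPM at 6 h (0.28 ± 0.05 at 3 h, adjusted p = 0.0418). Both were higher in each 3 h library. With the covariate the log2 fold change was 0.16 for Chka (adjusted p = 0.474) and 0.27 for Zranb1 (adjusted p = 0.167). Of 23 choline and phospholipid synthesis genes Chka was the 1 called, and their median was 0.0056 (-0.0053 with the covariate). Pemt, which makes phosphatidylcholine by another route, had one of the largest falls among genes averaging at least 2 CPM, from 3.06 and 3.20 CPM to 1.80 and 1.99 CPM, but its adjusted p was 0.178.

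The 12 named genes next in line by p had edgeR adjusted p of 0.0518 to 0.0659. Besides Myc, those lower were Ahnak2 (log2 fold change -0.25), Myh11 (-0.40), Zfp990 (-0.24), Lbh (-0.33), Aqp3 (-0.25), Grem1 (-0.25), Filip1l (-0.36) and Dmpk (-0.32). Of these Myh11, the smooth muscle myosin, and Grem1, a secreted BMP antagonist, are typical of stromal cells, and Myh11 measured 35.6 and 29.4 CPM at 0 h, 24.2 and 24.9 CPM at 3 h and 35.9 and 33.8 CPM at 6 h, lowest at 3 h. The summed fibroblast markers were lower at 3 h than at 0 h, but their 3 h and 6 h libraries overlapped (28303 and 27762 CPM against 31482 and 28138 CPM). The part of the fibroblasts in the result for Myh11 was not tested. Those higher were the antisense RNA Kcnq1ot1 (0.40), with 1.20% of its exon length overlapping genes on the opposite strand,, the nuclear receptor corepressor Lcor (0.30) and Ifrd1 (0.21). Aqp3, a water and glycerol channel, read 77.5 and 79.6 CPM at 0 h, 67.9 and 64.4 CPM at 3 h and 34.1 and 31.6 CPM at 6 h, so most of its fall came after 3 h.

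Genes with larger fold changes were mostly weakly expressed. The largest rises without overlap, among named genes averaging at least 2 CPM, were Lars2 (1.24 ± 0.33) and Mir6236 (1.17 ± 0.40), which like CT010467.1 gather ribosomal RNA reads in mouse libraries. They were followed by Trabd2b (0.69), Prdm9 (0.66), Qprt (0.60) and Meioc (0.59), with edgeR adjusted p of 0.163 to 0.309. Prdm9 and Meioc, which act in meiosis, read 1.39 to 1.92 and 3.15 to 3.32 CPM at 0 h. The largest falls besides Icosl and Pemt were Btla (-0.95), Itga10 (-0.80), Ppp4r4 (-0.67) and Siglecg (-0.66), with adjusted p of 0.144 to 0.332. Btla, an inhibitory receptor of lymphocytes, read 3.47 and 2.36 CPM at 0 h and 1.42 and 1.57 CPM at 3 h.

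**Figure D4:**
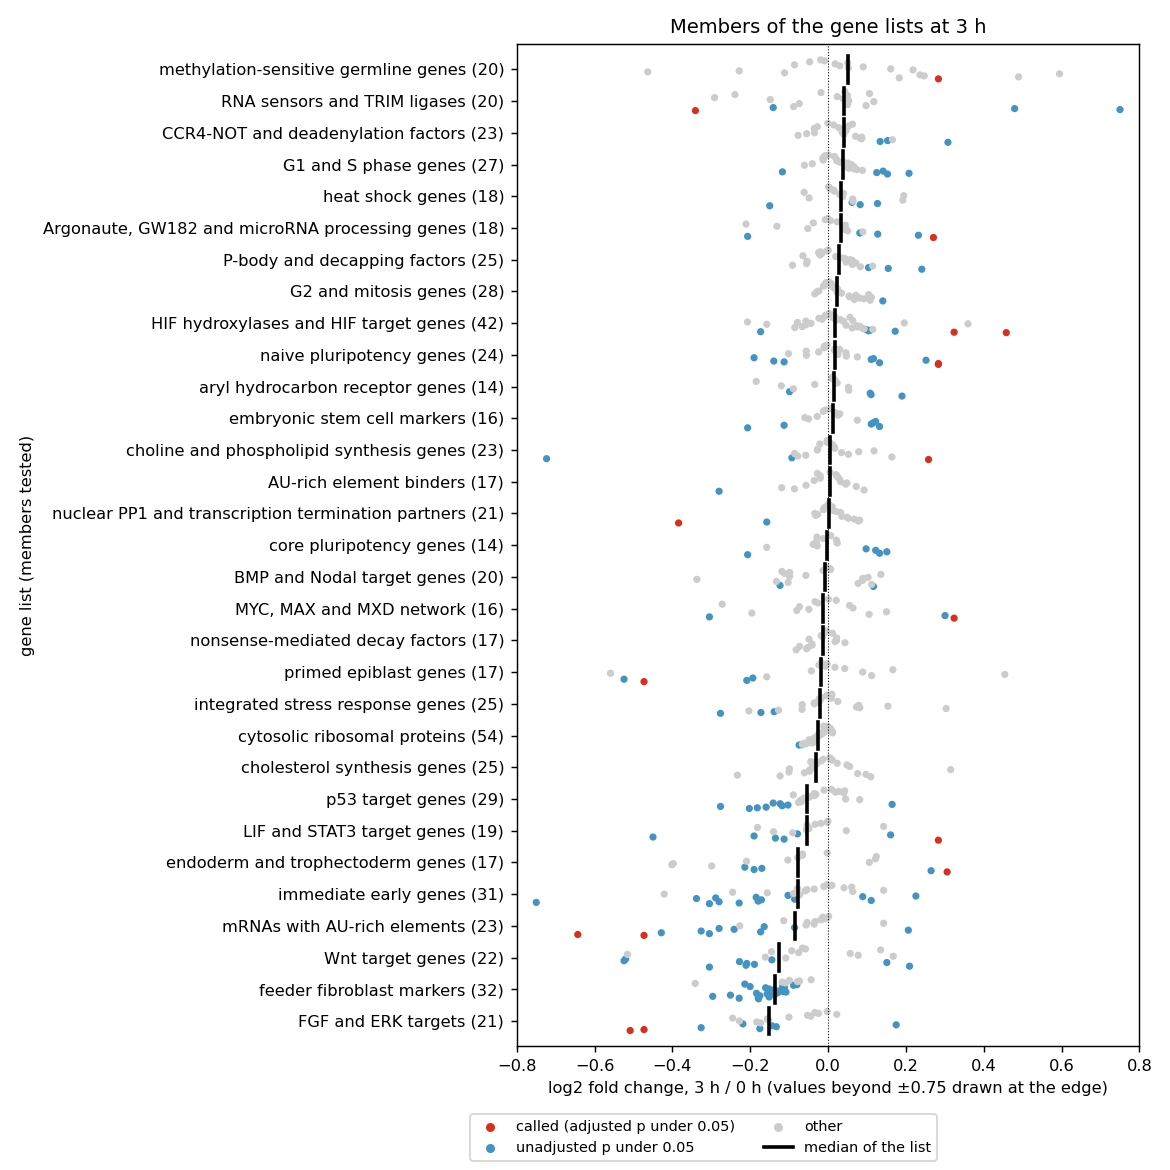
Log2 fold change at 3 h against 0 h of each tested member of 31 gene lists (points; red, called; blue, unadjusted p under 0.05) with the median of each list (bars), sorted by median. Most medians lie within 0.05 of 0; those of FGF and ERK targets (-0.15), fibroblast markers (-0.14) and Wnt targets (-0.13) are the lowest.

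Wnt target genes, in cells kept under GSK3 inhibition, had a median log2 fold change of -0.13, with 8 of 22 lower and 2 higher at an unadjusted p under 0.05 (6.18% and 4.48% of all genes) and none called. Leaving out replicate 1 of 0 h made the median -0.06, leaving out replicate 2 made it -0.20, and the fibroblast covariate made it -0.02. Cdx1, a caudal homeobox factor, measured 71.2 and 66.0 CPM at 0 h and 58.5 and 59.9 CPM at 3 h (-0.21 ± 0.05, edgeR adjusted p = 0.155). Notum, a secreted Wnt inhibitor, went the other way, from 83.3 and 89.3 CPM to 102 and 97.6 CPM (0.21 ± 0.05, adjusted p = 0.0823), and 38.1% of its exon length overlaps a gene on the opposite strand. p53 targets had 8 of 29 lower and 1 higher at that threshold, none called, and a median of -0.05, the same to 2 decimals with the covariate. Among them Pmaip1, which encodes the death protein NOXA, measured 92.3 and 88.6 CPM at 0 h and 79.2 and 78.0 CPM at 3 h (-0.20 ± 0.04, adjusted p = 0.0793). Both Cdx1 and Pmaip1 were lower in each 3 h library.

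Stress and housekeeping lists held no called gene. Over all genes, edgeR put 4.48% higher and 6.18% lower at an unadjusted p under 0.05. The integrated stress response list had a median of -0.02 (0.0054 with the covariate) with 3 of 25 lower at an unadjusted p under 0.05 (Cebpb, Ppp1r15a and Atf5), and the heat shock list one of 0.03 (0.02 with the covariate) with 3 of 18 higher and 1 lower. None of 25 cholesterol synthesis genes reached an unadjusted p under 0.05 in edgeR, and their median was -0.03 in both fits. Genes tied to the aryl hydrocarbon receptor, which indoles can bind, had no called member among 14, and their median was 0.01 (0.03 with the covariate). In edgeR 3 of the 14 were higher and 1 lower at an unadjusted p under 0.05. Of these Gclm had the smallest p, with a log2 fold change of 0.19 ± 0.04 (edgeR adjusted p = 0.0823). Cytosolic ribosomal protein genes had negative log2 fold changes in 50 of 54 cases, the lowest of them -0.07. Their median was -0.03, -0.06 with the covariate and -0.01 with replicate 2 of 0 h left out. G1 and S phase genes had a median of 0.04 (4 of 27 higher, 1 lower at an unadjusted p under 0.05) and G2 and mitosis genes one of 0.02 (1 of 28 higher, 0 lower). With the covariate these medians were -0.02 and -0.06, and that of the G2 and mitosis genes was -0.0080 with replicate 1 of 0 h left out.

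Lineage and marker lists had small medians, and several of these moved with the fit. The 17 primed epiblast genes had Dusp6 as the 1 called member and a median of -0.02 (-0.02 with the covariate, but 0.01 and -0.10 with replicate 1 or 2 of 0 h left out). The 17 endoderm and trophectoderm genes had Elf3 as the 1 called member and a median of -0.08, which was -0.05 with replicate 1 of 0 h left out, -0.18 with its replicate 2 left out and -0.01 with the covariate. None of the 20 BMP and Nodal targets was called, and their median was -0.0078 (0.05 with the covariate). The 17 binders of AU-rich elements had 0 called genes, 1 lower at an unadjusted p under 0.05 in edgeR (6.18% of all genes), and a median of 0.0046 (-0.07 with the covariate). The 16 ES cell markers had 0 called genes, 4 higher and 2 lower at an unadjusted p under 0.05 in edgeR (4.48% and 6.18% of all genes), and a median of 0.01 (-0.03 with the covariate).

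Base composition was related to the change at 3 h about as strongly as to the difference between the 0 h replicates. It was related more strongly to the differences between the 3 h and between the 6 h replicates. Across 11799 coding genes averaging at least 2 CPM, GC content at the wobble position of codons had a Spearman's rho of -0.105 with the log2 fold change. With replicate 2 minus replicate 1 of a time, its rho was -0.103 at 0 h, -0.194 at 3 h and -0.132 at 6 h. Taking 1 library of each time, the rho ran from -0.186 to 0.0334, and with the fibroblast covariate it was 0.0447. The points are genes that share libraries and depth.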

How the data were processed

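PolyA RNA of 6 libraries, 2 at each of 0, 3 and 6 h, was sequenced single-end from stranded libraries (500 to 1000 ng of total RNA, integrity number over 8.0, per the labels' protocols). The deposited values are raw counts per Ensembl gene, made by the authors with fastp 0.22.0, HISAT2 2.2.1 and featureCounts 2.0.3 on GRCm38 (mm10), per the submitters' processing notes. Which annotation release and strand setting were used, and how multiple matches were counted, is not given in the sources used here, so overlapping and near-identical genes are uncertain. Symbols (55227 of 55487 IDs), positions and 3′ untranslated regions came from GENCODE M21.

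Genes were kept by filterByExpr (minimum count 10), which held 99.9% of counts. TMM scaling and edgeR's quasi-likelihood test (edgeR 4.0.16, R 4.3.3; 3 residual and 13.7 prior degrees of freedom, two-sided) were run in 1 fit of all 6 libraries. SE is the log2 fold change over the square root of F, and CPM is TMM-scaled. Alternatives, with limma 3.58.1 and DESeq2 1.42.0 among the tools, are in the closing section.

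The comparison and the 31 gene lists (718 of 739 entries tested) were chosen with earlier results of these data known. The text names Ddx6 and Dcp1a, every called gene, the 12 next smallest p without predicted names, the 6 largest rises and falls without overlap (average log2 CPM 1 or more), and in each list the called members or else up to 3 with the smallest p. Other genes are marked as named after their values were seen, apart from fibroblast and ES cell markers given as ends of a range and members named by a count of the promoter or untranslated region.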

Additional observations from a re-analysis of the deposited data

How the results depend on the processing

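No called gene changed direction under any of the 19 alternatives. The 22 calls (8 higher, 14 lower) stayed within 1.5 times under median-ratio, upper quartile or no scaling factors, a CPM minimum, limma voom, the removal of genes that gather ribosomal RNA reads, and edgeR's legacy test, which was chosen after seeing the data. With no filter on low counts edgeR called 0 (0 higher, 0 lower), with 1839 of 29291 genes at an unadjusted p under 0.05. In the main fit 1679 of 15748 were at that threshold, a larger share. DESeq2 called 12 (4 and 8), 11 of them among the 22; it did not call Icosl, Rreb1, Tbc1d24, Zfp532, Chka, Tex19.1, Adamts1, Zranb1, Gm21411, Mxi1 and Zfp65 (adjusted p 0.0932 to 0.310), and limma voom did not call Mxi1 (0.0508). The 4 libraries alone gave 74 calls (23 and 51), the fibroblast covariate 47 (13 and 34) and edgeR's robust prior, also chosen after seeing the data, 50 (18 and 32). Leaving out 1 library gave 4 to 249 calls (1 to 34 higher, 3 to 215 lower).

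With replicate number as a block 242 genes were called (55 higher, 187 lower), all 22 among them. The deviations of same-numbered libraries from their group means correlated at r = 0.0722 for 0 h and 3 h, 0.154 for 0 h and 6 h and 0.0173 for 3 h and 6 h, so the numbers are not shown to pair the samples.

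Of 95 named genes under all alternatives, 1534 of 1793 values kept their direction and their side of the threshold, 98 lost the call, 156 gained it and 5 changed sign. With the covariate the log2 fold change was -0.0218 for Cnot3, 0.00916 for Atf5, -0.0127 for Aurkb and -0.0429 for Top2a. For Dcp1a it ran from -0.0466 without replicate 1 of 0 h to 0.00593 without replicate 2. The causes were not tested. With 2 libraries a time, a library that differs from its replicate cannot be judged, and genes below 1 CPM could be called only for large changes.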
